A study of Homo sapiens with 4 samples.

Results

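DGAT2 and PDE4D are 2 human genes at which SMAD1 peaks without a counterpart in untreated cells were listed after BMP4 treatment. The assay was ChIP-seq (chromatin immunoprecipitation followed by sequencing), in which DNA bound by a protein, here SMAD1, is recovered with an antibody, sequenced and summarised as peaks of enrichment over input chromatin. The cells were H1, an established line of human embryonic stem cells (hESCs) grown in mTeSR1, a medium that keeps them pluripotent, and were either untreated or given BMP4 at 50 ng/ml for 60 min. The labels give 1 SMAD1 ChIP and 1 input sample per condition, and the authors merged replicates before calling peaks, so each condition is 1 list of peaks and the conditions were compared without a test. Members are all peaks of both lists within 100 kb of either gene body in genome build hg19, which runs from 75479778 to 75512581 on chromosome 11 for DGAT2 and from 58264866 to 59783925 on chromosome 5 for PDE4D. This gave 9 peaks of 12885, of which 7 came from the BMP4 list of 7682 peaks and 2 from the untreated list of 5203 peaks. The genes were chosen by measured values, namely the scores of their strongest BMP4 peaks and the absence of an untreated partner, so both facts are given as a description. All cells were of 1 line, and peak lists carry no expression values with which to check the cell type against its markers.

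SMAD1 carries BMP signals from the cell surface to DNA. An activated BMP receptor phosphorylates it, and it then enters the nucleus with SMAD4 and binds regulatory DNA near target genes. DGAT2 encodes diacylglycerol O-acyltransferase 2, an enzyme of the endoplasmic reticulum and lipid droplets that carries out the last step of triacylglycerol synthesis. PDE4D encodes a phosphodiesterase that breaks down cyclic AMP and so limits signalling through protein kinase A. It is a very long gene whose protein isoforms arise from several promoters.

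DGAT2 held 1 SMAD1 peak after BMP4 and none in untreated cells. The BMP4 peak spanned chr11:75479031-75480345 and was 1315 bp wide. It lay over the start of the gene, which is transcribed from the plus strand, with 747 bp upstream of the 5′ end and 568 bp inside the gene. Its score was 1221.86 on the scale of the authors' peak caller, which was read as 10 times −log10 of a p-value. The lowest score in either list was 50, so a peak that is missing from a list had less than this score there and need not have had no signal.

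This peak stood alone. The nearest other BMP4 peak (798 bp wide, score 60.82, with an untreated partner) was 364 kb away on the upstream side. Of all BMP4 peaks, 14.9% were at least as far from their nearest neighbour in the same list, and the median gap over the list was 95.3 kb. The nearest untreated peak was 196 kb upstream, from 75282675 to 75283289, with a width of 615 bp and a score of 50.69, close to the lowest score listed. It was therefore outside the 100 kb limit, and it had no partner in the BMP4 list. Among BMP4 peaks without a partner, 51.6% were as far or farther from an untreated peak, so this distance was close to the middle of that set.

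Downstream of DGAT2 the next peaks of both lists were found at one place 433 kb beyond the end of the gene. Both had a score of 3100, and they were 1400 bp (untreated) and 1488 bp (BMP4) wide. Many scores pile up at this value. Of 312 partnered BMP4 peaks scoring 1000 or more, 228 had 3100 or more, and the highest BMP4 score was 3157.72. Equal scores of 3100 therefore need not mean equal enrichment. Thus a peak of high score was listed in both conditions at the next site on this side, while only the BMP4 list had a peak at the start of DGAT2. Whether that next site is one of the tRNA regions with nonspecific enrichment noted by the authors was not checked. In the gene order of RefSeq (GRCh38.p14), the gene next to DGAT2 on its upstream side is the long non-coding RNA DGAT2-DT, a divergent transcript. The nearest protein-coding genes are MOGAT2 upstream, which encodes an acyltransferase of the same family that makes diacylglycerol, and UVRAG downstream, which encodes a protein of autophagy and endosome traffic. Distances of these genes from the peak are not given, since the annotation at hand is of another build than the lists.

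**Figure D1:**
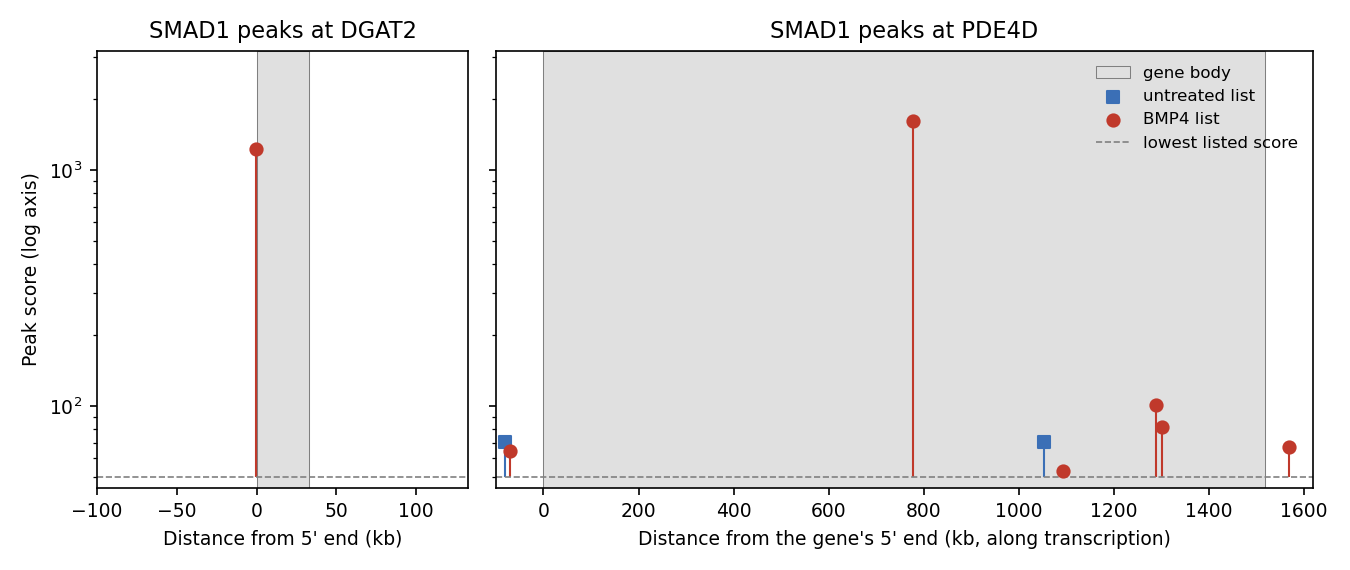
SMAD1 peak scores (log axis) against the distance of each peak's middle from the 5′ end of DGAT2 (left) and PDE4D (right), in kb along the direction of transcription and within 100 kb of each gene body. Grey areas are gene bodies, circles are peaks of the BMP4 list, squares are peaks of the untreated list and the dashed line is the lowest listed score of 50. The BMP4 peaks at 1221.86 and 1613.83 stand over the other 7 peaks, which score between 53.02 and 100.89.

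PDE4D held 6 BMP4 peaks and 2 untreated peaks, and a single BMP4 peak accounted for the high score at the gene. This peak spanned chr5:59004749-59006327, was 1579 bp wide and scored 1613.83. PDE4D is transcribed from the minus strand, and the peak lay inside the gene body with its middle 778 kb from the 5′ end, at 51.2% of the length of the gene. The nearest untreated peak was 274 kb away on the side of the 3′ end, and the nearest BMP4 peak was 313 kb away on the same side, with a score of 53.02. Toward the 5′ end of the gene, no peak of either list was found for 848 kb, a stretch that reaches past that end.

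The other 5 BMP4 peaks at PDE4D scored far less than the strong peak, with ranks from 1532 to 6538 of 7682. Their scores ranged from 53.02 to 100.89 with a median of 66.82, against a median of 63.3 over all BMP4 peaks. Their widths ranged from 576 to 894 bp with a median of 676 bp, against 674 bp over the list. By contrast, the strong peak scored 16.0 times as high as the next one and was 1.77 times as wide as the widest of the others. Hence 5 of the 6 BMP4 peaks at this gene were ordinary members of their list by score and width.

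Within the gene body, 3 of these weaker BMP4 peaks lay in the part nearer to the 3′ end. A pair of them was 13.4 kb apart, with the one from 58495849 to 58496583 at a score of 100.89 and a width of 735 bp, and the one from 58481539 to 58482432 at a score of 81.67 and a width of 894 bp. Their middles were at 84.8% and 85.7% of the length of the gene. The remaining one, from 58691171 to 58691763, had the lowest score of all members, 53.02, with a width of 593 bp, and lay at 71.9% of the length. These positions leave the strong peak as the only BMP4 peak in the portion of the gene from its 5′ end to this weakest peak.

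Outside the gene body, BMP4 peaks were listed on both sides. Upstream of the 5′ end, a BMP4 peak from 59854144 to 59854819 (score 64.61, width 676 bp) lay 70.2 kb from the gene. Downstream of the 3′ end, another from 58215783 to 58216358 (score 66.82, width 576 bp) lay 48.5 kb from the gene. No peak of either list overlapped the 5′ end of PDE4D that was used here. RefSeq lists 8 promoter windows for this gene, so that end is only one of its starts, and the others could not be placed on hg19.

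The 2 untreated peaks at PDE4D were weak and similar to each other. One lay within the gene, from 58729704 to 58730472, at 69.4% of its length, with a score of 70.47 and a width of 769 bp. The other lay 81.5 kb upstream of the gene, from 59865446 to 59866205, with a score of 70.05 and a width of 760 bp. Their ranks in the untreated list were 1886 and 1907 of 5203, against a median score of 61.7 over that list. Each had a BMP4 peak in its neighbourhood that did not overlap it. The first was 37.9 kb from the BMP4 peak with a score of 53.02, and the second was 10.6 kb from the BMP4 peak upstream of the gene, the closest approach of the lists at either gene.

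None of the 9 members had a partner, defined as a peak of the other list that overlapped by at least 1 bp. This share has to be read against the background, where 87.3% of all BMP4 peaks and 81.7% of all untreated peaks had no partner. For the 7 weaker members the absence of a partner was therefore what most peaks of their lists showed. Among BMP4 peaks scoring 100 or more, to which 3 members belong, 58.8% had no partner. For BMP4 peaks with a score of at least 1000, the share was 2.80%, or 9 of 321 peaks, and the strong peaks at DGAT2 and PDE4D were 2 of these 9. As both genes were picked for this state, nothing further is read from it.

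The density of peaks at PDE4D is given beside that of its surroundings, as a description. The 6 BMP4 peaks in the window of 1719 kb corresponded to 3.49 peaks per Mb (95% exact Poisson interval 1.28 to 7.60), against 2.63 per Mb over chromosome 5 and 2.56 per Mb over all 24 chromosomes. The 2 untreated peaks corresponded to 1.16 per Mb (0.141 to 4.20), against 1.69 per Mb over chromosome 5 and 1.73 over all chromosomes. The intervals cover counting error only and are wide. The BMP4 number includes the strong peak for which the gene was chosen, so nothing is read from these densities about the gene. The window of DGAT2 covered 233 kb, and its 1 BMP4 peak is the one for which it was chosen.

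The strong peaks at both genes were then placed within the BMP4 list. By score the PDE4D peak ranked 284 and the DGAT2 peak 302 of 7682, which is within the top 3.70% and 3.93%. Among the BMP4 peaks without a partner they ranked 2 and 5 of 6708. Their scores were 25.5 and 19.3 times the median of the list. The PDE4D score was 1.32 times the DGAT2 score, and without replicates it is unknown whether this exceeds the variation between cultures.

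Both peaks were also wide against the whole list, most of which scored far lower. The PDE4D peak was 2.34 times and the DGAT2 peak 1.95 times the median width of the list, with ranks of 352 and 528 by width. Among peaks without a partner the median width rose from band to band of score, from 598 bp at scores of 50 to 60 to 968 bp at 100 to 300. At 300 to 1000 it was 1222 bp. Among peaks with a partner the median also rose over the lower bands, from 802 bp at 50 to 60 to 1006 bp at 60 to 100. It was 1149 bp at 100 to 300 and 1156 bp at 300 to 1000. In the band from 1000 to 3100, the 9 peaks without a partner had a median width of 1750 bp (quartiles 1393 and 2049 bp), and the 84 peaks with a partner had a median of 1153 bp (quartiles 1093 and 1253 bp). The PDE4D peak fell between the quartiles of the peaks without a partner, while the DGAT2 peak was narrower than their lower quartile. Each was wider than the upper quartile of the 84 peaks with a partner, of which 18 were wider than the DGAT2 peak and 11 wider than the PDE4D peak. Over all 312 partnered BMP4 peaks that scored 1000 or more, including 228 at 3100 or above, the upper quartile was 1465 bp, so that the PDE4D peak was wider and the DGAT2 peak narrower than it. Of these 312 peaks, 98 were wider than the DGAT2 peak and 70 wider than the PDE4D peak. Of the 20 BMP4 peaks closest in rank by score to each, 8 were wider than the DGAT2 peak and 3 wider than the PDE4D peak.

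**Figure D2:**
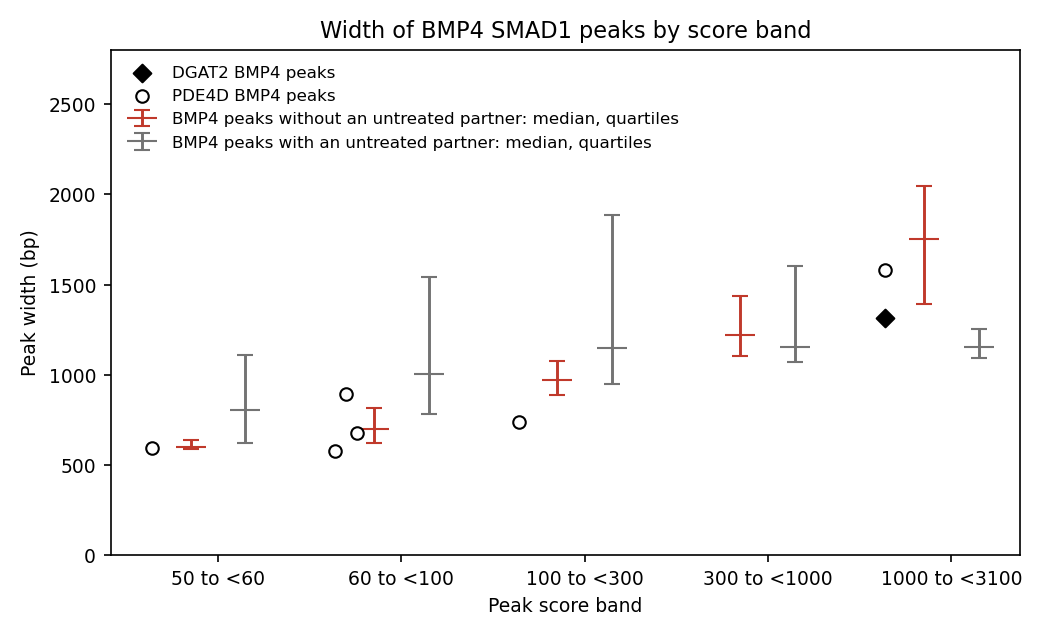
Width in bp of BMP4 SMAD1 peaks by score band. Horizontal bars are medians and whiskers are quartiles, in red for peaks without an untreated partner and in grey for peaks with one, the filled diamond is the DGAT2 peak and open circles are the 6 BMP4 peaks of PDE4D. In the band from 1000 to 3100 the DGAT2 peak (1315 bp) and the PDE4D peak (1579 bp) lie over the grey quartiles, while the weaker PDE4D peaks lie at 576 to 894 bp.

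Peaks of similar score in the BMP4 list usually had an untreated partner. Of the 20 BMP4 peaks closest to the PDE4D peak in rank, 10 on each side with scores from 1362 to 1940, all 20 had a partner. The untreated scores of these partners ranged from 80.55 to 764 with a median of 398. Around the DGAT2 peak, with scores from 1160 to 1423, 16 of 20 had a partner, whose scores ranged from 107 to 639 with a median of 339. For these neighbours the untreated list thus gave lower scores also where it did hold a peak. They were picked by BMP4 score, so a lower untreated score is partly built into the choice. Over all 84 partnered BMP4 peaks from 1000 to under 3100, partner scores had a median of 592 and reached 3100. A score is not a measure of enrichment on a scale that both lists share, and the lists do not give sequencing depths.

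Among the 9 BMP4-only peaks scoring at least 1000, the DGAT2 and PDE4D peaks had the widest surroundings without another BMP4 peak. The gap to the nearest BMP4 peak was 364 kb for DGAT2 and 313 kb for PDE4D, the largest of the 9, whereas it ranged from 0.015 to 266 kb in the other 7, with a median of 0.755 kb. The gap to the nearest untreated peak was largest for PDE4D, with 274 kb, and the DGAT2 gap, 196 kb, came after that of a peak at 200 kb. For the other 7 this gap ranged from 2.01 to 200 kb with a median of 103 kb. In width they ranked 6 (PDE4D) and 8 (DGAT2) of the 9, and the other 7 had a median of 2007 bp and ranged from 1167 to 2857 bp. Among peaks of similar score in the whole list, isolation of this degree was found too, as 1 of the 20 peaks closest in rank was farther from its nearest BMP4 peak than DGAT2, and likewise 1 of 20 for PDE4D. These are descriptions of 9 peaks of 1 list, with no test.

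**Figure D3:**
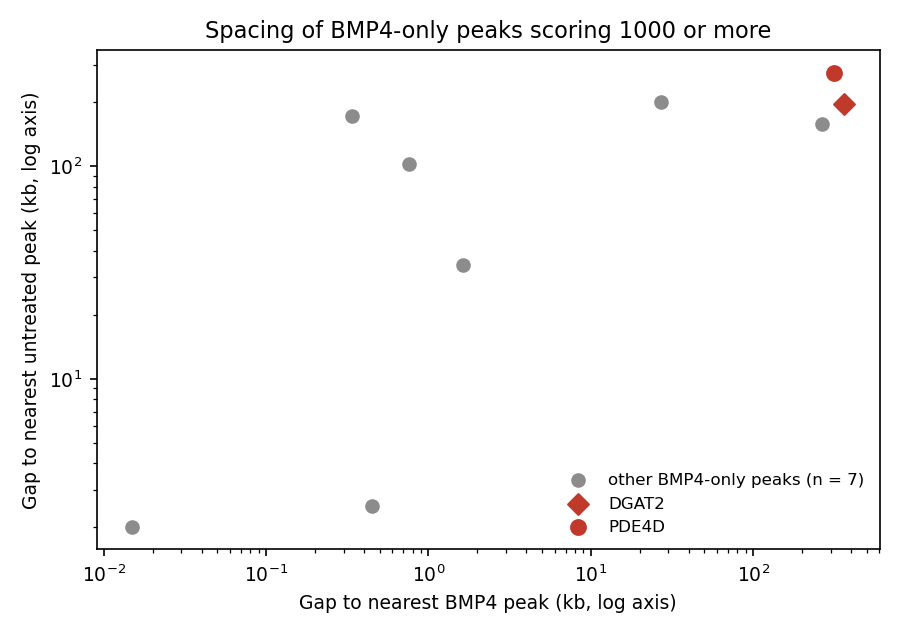
Gap in kb to the nearest untreated peak against the gap in kb to the nearest BMP4 peak (both log axes) for the 9 BMP4-only peaks that scored 1000 or more. DGAT2 (diamond, 364 kb from a BMP4 peak and 196 kb from an untreated peak) and PDE4D (red circle, 313 and 274 kb) lie at the right edge, and grey circles are the other 7 peaks.

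The genes differed in where the strong peak lay. At DGAT2 it covered the 5′ end, so that it is a promoter peak by position, and no other peak was listed within the limit. At PDE4D it lay deep inside the gene, far from the 5′ end that was used. Whether it falls in an intron, an exon or at an internal start of PDE4D was not worked out, because the exon annotation at hand is of GRCh38. RefSeq places 9 other genes inside PDE4D, among them the microRNA gene MIR582, the antisense RNA PDE4D-AS1 and 3 further long non-coding RNAs, and their distances from the peak are not given for the same reason.

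Around the 100 kb limit, the members closest to it were the untreated peak 81.5 kb and the BMP4 peak 70.2 kb upstream of PDE4D. The first peak left out at PDE4D was a BMP4 peak 137 kb upstream of the gene, with a score of 85.18 and a width of 799 bp, and no partner. On the downstream side the next BMP4 peak was 251 kb and the next untreated peak 582 kb from the gene. At DGAT2, the first peaks left out were the untreated peak 196 kb and a BMP4 peak 364 kb upstream of the gene.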

How the data were processed

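SMAD1 ChIP-seq peak lists of H1 hESCs, untreated or after BMP4, were used, and the 2 input samples were not analysed on their own. According to the methods and the submitters' processing notes, the authors aligned reads to hg19 with BWA 0.7.5a, merged replicates and called peaks with MACS 1.4.2 at default settings. The deposited score of each peak was read as 10 times −log10 of a p-value, since the lowest score was 50 (a p-value of 1e-05). A p-value of this kind depends on sequencing depth as well as on enrichment. The lists give no depth per library. They are many times longer than the peak numbers in the study's methods, where the untreated set is the larger one, and which filter lies between is not given in the sources used here. Ranks and shares therefore refer to the deposited lists. The authors also noted nonspecific enrichment at tRNA regions, and no peak was removed for it here, so partnered peaks may include such sites.

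Positions are given 1-based. Partners were found with bedtools 2.31.1 (overlap of at least 1 bp), and gaps are the bases between peaks. Gene bodies were those set for the choice of members, and strands came from GENCODE v44. Overlaps and gaps were tested on simulated peaks. All peaks within 100 kb were described, with those scoring at least 100, the strongest per list and those nearest the gene start and the limit in full. The members and rules were chosen with earlier results of these data known. With 1 list per condition no test was run. Alternatives changed the minimum score, the window, the partner rule, the list length and the maximum width. The motif search planned for gene starts was not run, since no promoter entry for DGAT2 was at hand and no peak was placed on one of PDE4D. Python 3.11.15, pandas 2.3.3, scipy 1.17.1 and matplotlib 3.10.9 were used.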

Additional observations from a re-analysis of the deposited data

How the results depend on the processing

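Numbers of peaks at each gene and shares without a partner, 12 values in all, were recomputed under the alternatives, of which 8 apply to the numbers. In 55 of 67 recomputed values the number stayed within 1.5 times, or the share within its 95% exact binomial interval. Many of these could not have moved. A partner rule cannot change how many peaks lie in a window, and the widest member was 1579 bp, so the width limit removed none. No member had a partner, so the numbers without a partner repeated the numbers of peaks. The 55 are therefore no measure of stability. Limiting both lists to scores of 100 or more left 2 BMP4 and 0 untreated peaks at PDE4D, none with a partner. A window of 0 or 50 kb left 1 untreated peak at PDE4D, and one of 200 kb added 1 untreated peak at DGAT2, also without a partner. The BMP4 peaks at PDE4D numbered 4, 5 and 7 with windows of 0, 50 and 200 kb, against 6. With lists of equal length they numbered 5. All of these counted as within 1.5 times. For the shares, only the peaks counted were limited to a score of at least 100, and partners of any score were allowed. In the whole lists this lowered the share without a partner to 40.1% of untreated and 58.8% of BMP4 peaks. At both genes the share stayed at 100% of BMP4 peaks, and no untreated peak was left to count. The strong peaks at DGAT2 and PDE4D had no partner under an overlap of 50% of both peaks, a gap of up to 1 kb, lists of equal length or without peaks wider than 5000 bp. This follows from their choice and from the distance of the nearest untreated peaks, and is no sign of stability. No paired analysis was possible because replicates were merged into a single list per condition and nothing was tested. Without read counts, signal under a score of 50 was not detectable at either gene.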
